A study of Mus musculus with 12 samples.

Results

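The loss of Aire in MHC class II low medullary thymic epithelial cells (mTEClo) was measured by 1 pair of arrays of the 12 in the series, Aire-/- mTEClo against Aire+/+ mTEClo. The arrays were chosen by their titles, which give both the replicate number 1, and 22154 genes were compared. RNA came from thymi of C57BL/6 mice aged 4 weeks that were sorted for live CD45-negative, Epcam-positive, UEA-positive and Ly51-low cells. MHC class II level then split the cells into mTEClo and mTEChi. The groups used here are Aire-/- mTEClo, Aire+/+ mTEClo, Brg1-/- mTEClo and Brg1+/+ mTEClo with 1 array each, and Aire-/- mTEChi, Aire+/+ mTEChi, Brg1-/- mTEChi and Brg1+/+ mTEChi with 2 arrays each. The labels do not say how either gene was deleted or in which cells, nor how many animals went into an array.

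Medullary thymic epithelial cells express a very wide range of genes that are otherwise restricted to peripheral tissues, and so show these products to developing T cells. Aire is the transcriptional regulator behind a large share of that expression, and it is made chiefly by the mature MHC class II high cells. The MHC class II low fraction is mixed: it holds immature cells that have not yet made Aire and cells that made it earlier and went on to tuft, microfold, keratinocyte-like and other forms. The comparison asks which transcripts of that fraction differ when Aire is missing.

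Values are log2 intensities, where a difference of 1 is 2-fold. With 1 array a side there is no replicate of the mTEClo comparison, and the error given (SE) is that of limma, which takes its spread from the mTEChi replicates and assumes that a lone mTEClo array varies like them. Nothing in the labels says that replicates are separate animals, so the p-values cover no more than the spread between arrays, and that spread may be technical. The low fraction was checked against its markers. Krt14, a basal keratin of mTEClo, read 12.05 in Aire-/- and 12.10 in Aire+/+ mTEClo, and 10.57 to 11.68 on the 8 mTEChi arrays. Cd80, a costimulatory marker of mature cells, read 6.89 in Aire-/- and 6.18 in Aire+/+ mTEClo, and 8.96 to 10.45 in mTEChi. The low arrays lay apart from the mTEChi arrays for both genes, on the side that their label calls for. Not every listed marker did so. Itgb4, listed for mTEClo, read 6.42 in Aire+/+ mTEClo, within the 5.96 to 6.50 of mTEChi. Ciita, listed for mTEChi, read 6.69 in Aire-/- mTEClo, within the 6.43 to 6.94 of mTEChi. H2-Aa, a class II chain, read 10.48 in Aire-/- and 10.83 in Aire+/+ mTEClo, below the 11.07 to 12.15 of mTEChi. Aire itself read 6.72 in Aire-/- and 6.43 in Aire+/+ mTEClo, a difference of 0.29 (SE 0.762, limma adjusted p = 1). Where its probe set lies relative to the deleted part of the gene is not known here, so this reading checks nothing.

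The 7 measured of 8 mTEChi markers summed to 55.35 in Aire-/- and 53.85 in Aire+/+ mTEClo, the highest and the lowest of the 4 mTEClo arrays, against 63.39 to 67.68 in mTEChi. Marker lists of other cells were summed in the same way. Over 6 of 8 listed thymocyte markers that were measured the sum of log2 values was 31.58 in Aire-/- and 32.75 in Aire+/+ mTEClo, against 30.94 to 33.08 over the 4 mTEClo arrays. For all 6 fibroblast and endothelial markers it was 36.92 in Aire-/- and 37.26 in Aire+/+ mTEClo, and 36.45 to 38.33 over the 4 mTEClo arrays. It was 21.89 in Aire-/- and 21.56 in Aire+/+ mTEClo for all 4 cortical epithelial markers, and 22.29 in Aire-/- and 22.52 in Aire+/+ mTEClo for 4 of 5 myeloid and B cell markers. Cd3d, a T cell receptor complex gene, read 6.11 in Aire-/- and 6.93 in Aire+/+ mTEClo, while Cd4 read 5.06 in Aire-/- and 4.21 in Aire+/+ mTEClo. Of 14 measured thymocyte and T cell genes, 4 were lower and 10 higher in Aire-/- than in Aire+/+ mTEClo, with a median difference of 0.065. Dcn, the fibroblast proteoglycan decorin, read 9.50 in Aire-/- and 10.45 in Aire+/+ mTEClo, and 10.92 in Brg1-/- and 9.94 in Brg1+/+ mTEClo. The part of such cells in the differences below was not tested, and in bulk samples fewer cells of a type and less RNA per cell cannot be told apart. Of the arrays used as a yardstick, Brg1-/- mTEClo stands apart in the class II gene H2-Ea, at 10.11. The gene read 4.20 in Aire-/-, 3.98 in Aire+/+ and 4.35 in Brg1+/+ mTEClo. In mTEChi its mean was 11.46 in Brg1-/- and 7.875 in Brg1+/+ arrays. The Aire-/- mTEChi arrays read 5.89 and 5.09, and the Aire+/+ mTEChi arrays 4.62 and 4.55. Whether the Aire and Brg1 lines differ in background was not tested. The counts of 2-fold lower and higher genes outside the other 3 mTEClo arrays are also given without Brg1-/- mTEClo. Further counts against the other 3 mTEClo arrays include it unless stated.

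Relative to Aire+/+ mTEClo, 347 of 22154 genes (1.57%) in Aire-/- mTEClo were lower by 2-fold or more and 130 (0.587%) were higher by 2-fold or more. Raising the size to 4-fold left 51 lower and 11 higher genes, and 8-fold left 12 lower and 1 higher. The other low arrays also had more lower than higher genes when set against the same Aire+/+ array: 295 lower and 222 higher in Brg1-/- mTEClo, and 342 lower and 230 higher in Brg1+/+ mTEClo. The number of 2-fold lower genes in Aire-/- mTEClo was thus close to that between the wild types of both lines. At 4-fold the lower genes were 51 in Aire-/-, 24 in Brg1-/- and 30 in Brg1+/+ mTEClo against Aire+/+ mTEClo. Brg1-/- mTEClo had 281 genes at least 2-fold lower and 325 higher than Brg1+/+ mTEClo. Single arrays of the same number in mTEChi gave 885 lower and 388 higher genes in Aire-/- 1 against Aire+/+ 1, and 891 lower and 180 higher in Aire-/- 2 against Aire+/+ 2. The median over all genes was 0.04 in the mTEClo comparison, with an SD of 0.398 over genes.

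**Figure D1:**
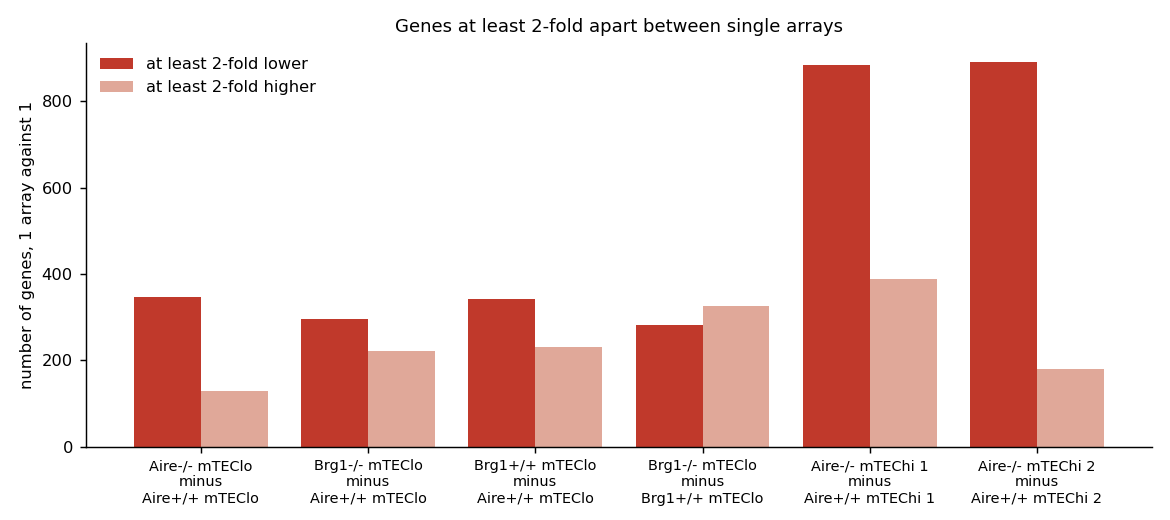
Number of genes, of 22154, at least 2-fold lower (dark bars) or higher (light bars) in the first array than in the second, for 6 comparisons of 1 array against 1. Against Aire+/+ mTEClo, Aire-/- has 347 lower and 130 higher, Brg1-/- has 295 and 222 and Brg1+/+ has 342 and 230, while the mTEChi pairs have 885 and 891 lower.

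Of the 347 lower genes, 260 (1.17% of all genes, and 74.9% of the 347) also lay below all of the other 3 mTEClo arrays. Without Brg1-/- mTEClo, 290 lay below both wild-type mTEClo arrays. Of the 130 higher genes, 99 (0.447% of all genes) lay above the other 3, and 112 above both wild-type arrays. Of all 22154 genes, whatever their size of difference, 19.7% lay below and 29.2% above the other 3. Below both wild-type arrays lay 5887 of them and above both 8135. Against the other wild type alone, Brg1+/+ mTEClo, 143 of the 347 were at least 2-fold lower, beside 411 of all genes. Of the 130, 50 were at least 2-fold higher against it, beside 212 of all genes. These counts reuse the Aire-/- array by which the 347 and the 130 were picked, so they are no separate evidence.

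By limma over all 22154 genes none was lower or higher at an adjusted p under 0.05 (0 lower and 0 higher, 0% each), where 298 genes had an unadjusted p under 0.05, 204 of them lower; that is fewer than the 1108 that this threshold gives by chance over 22154 genes. The smallest adjusted p was 0.0749. Between both arrays of an mTEChi group the SD over genes was 0.575 to 0.722. It was 0.398 in the mTEClo comparison, whose arrays share a replicate number. The borrowed spread may thus be too wide for the mTEClo arrays, and the absence of calls does not show that no gene differed. Arrays of the same replicate number deviated together, and with the number as a block within each line the median SE of the mTEClo difference was 0.307, against 0.459 without it. With the block, 3 genes were lower (0.0135%) and 0 higher: Saa2, Klk1b1 and Reg3b. These calls did not hold with the block and any 1 of the 8 mTEChi arrays left out. Each such fit left 1 residual degree of freedom in place of 2. Leaving out any mTEChi array of the same line gave the same mTEClo result, so these were not 8 separate checks.

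Saa2, serum amyloid A2, is an acute phase apolipoprotein made by the liver and by epithelia. Its value was 5.24 in Aire-/- mTEClo and 10.35 in Aire+/+ mTEClo, beside 8.92 in Brg1-/- and 10.50 in Brg1+/+ mTEClo. The Aire-/- array lay far below the other 3. The difference was -5.11 (SE 0.455, limma adjusted p = 0.0749), with SE 0.324 and adjusted p = 0.00989 with the block. In mTEChi it read 10.37 and 10.75 in Aire-/- and 12.38 and 12.62 in Aire+/+ arrays, so both Aire-/- mTEChi arrays read above 10 (difference -1.94, limma adjusted p = 0.0503, and 0.00642 with the block).

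Klk1b1, a glandular kallikrein protease best known from the mouse salivary gland, read 3.28 in Aire-/- mTEClo and 7.53 in Aire+/+ mTEClo, and 5.0 in Brg1-/- and 7.06 in Brg1+/+ mTEClo. The difference was -4.25 (SE 0.384, limma adjusted p = 0.0749), with SE 0.273 and adjusted p = 0.00989 with the block. In mTEChi it read 8.86 and 9.34 in Aire-/- and 10.03 and 10.35 in Aire+/+ arrays. As with Saa2, the difference was larger in the low arrays than in the high arrays.

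Reg3b, an antibacterial lectin of the intestine and the injured pancreas, read 7.11 in Aire-/- mTEClo and 11.15 in Aire+/+ mTEClo, a difference of -4.04 (SE 0.442, limma adjusted p = 0.143; SE 0.278 and adjusted p = 0.0106 with the block). The Brg1-/- and Brg1+/+ mTEClo arrays gave 8.11 and 7.49. Here the Aire+/+ array was the one that stood apart, and against the mean of both wild-type arrays the difference was -2.21. In mTEChi Reg3b read 8.78 and 8.79 in Aire-/- and 12.40 and 12.25 in Aire+/+ arrays, without overlap.

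The start regions of these 3 genes, and of Dcpp2 and Defa22, which lie among the 12 largest differences, are shown because Aire is known to act on transcription at gene starts. They are RefSeq promoters of the build GRCm38.p6, 250 bases before to 50 after the start, read along the gene. Capitals mark TATAAA, searched on both strands, the core of the TATA box that places the transcription machinery.
Saa2, chr7:46751583-46751882, plus strand: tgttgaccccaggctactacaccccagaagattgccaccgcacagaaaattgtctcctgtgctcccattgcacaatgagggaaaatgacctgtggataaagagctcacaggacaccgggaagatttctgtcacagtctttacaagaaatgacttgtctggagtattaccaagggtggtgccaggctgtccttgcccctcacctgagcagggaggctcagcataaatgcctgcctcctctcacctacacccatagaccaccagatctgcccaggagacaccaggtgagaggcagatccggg
Klk1b1, chr7:43966501-43966800, plus strand: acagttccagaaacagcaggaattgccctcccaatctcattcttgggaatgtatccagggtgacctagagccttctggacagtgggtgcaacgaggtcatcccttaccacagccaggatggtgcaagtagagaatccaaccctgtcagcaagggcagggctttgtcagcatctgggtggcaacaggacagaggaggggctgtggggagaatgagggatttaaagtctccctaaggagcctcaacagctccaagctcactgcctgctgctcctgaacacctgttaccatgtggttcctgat
Reg3b, chr6:78370635-78370934, plus strand: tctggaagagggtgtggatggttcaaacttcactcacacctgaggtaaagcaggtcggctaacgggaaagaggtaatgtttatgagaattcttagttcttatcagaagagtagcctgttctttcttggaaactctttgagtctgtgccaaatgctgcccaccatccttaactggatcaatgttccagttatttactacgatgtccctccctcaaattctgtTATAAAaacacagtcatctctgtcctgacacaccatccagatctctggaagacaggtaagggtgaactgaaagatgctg
Dcpp2, chr17:23898472-23898771, plus strand: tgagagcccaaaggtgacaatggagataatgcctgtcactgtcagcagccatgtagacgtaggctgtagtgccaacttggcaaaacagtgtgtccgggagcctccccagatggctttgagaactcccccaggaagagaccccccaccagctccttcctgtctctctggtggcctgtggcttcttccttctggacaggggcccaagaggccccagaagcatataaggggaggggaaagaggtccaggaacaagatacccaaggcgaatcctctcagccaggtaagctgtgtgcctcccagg
Defa22, chr8:21162027-21162326, plus strand: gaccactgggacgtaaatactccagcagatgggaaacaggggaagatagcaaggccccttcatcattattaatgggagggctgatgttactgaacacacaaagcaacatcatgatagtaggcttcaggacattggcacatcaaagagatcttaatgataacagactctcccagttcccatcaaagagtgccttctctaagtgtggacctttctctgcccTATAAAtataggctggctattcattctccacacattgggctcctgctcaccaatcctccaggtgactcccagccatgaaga
TATAAA begins at base 222 in Reg3b and at base 220 in Defa22, and these letters are not in the windows of Saa2, Klk1b1 and Dcpp2. The 300 bases of Defa21 and Defa22 are identical at all 300 positions, so the start regions of these Paneth cell defensins cannot be told apart by sequence. Among the genes with a RefSeq promoter, TATAAA stood on the gene's strand in 44 of 273 genes at least 2-fold lower in Aire-/- mTEClo (16.1%), in 23 of 85 at least 2-fold higher (27.1%) and in 1421 of all 16984 (8.37%). On the other strand it stood in 9.52% of the lower, 15.3% of the higher and 6.01% of all genes. The median number of CG dinucleotides in the window was 4 for the lower genes, 3 for the higher genes and 13 for all genes. Lower and higher genes thus both had fewer CG and a larger share with TATAAA than all genes.

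The 12 genes with the largest lower values among those below the other 3 mTEClo arrays are described next, after leaving out predicted genes and the other classes that the naming rule drops. Dcpp2 and Dcpp1 encode demilune cell proteins of the salivary gland. Dcpp2 read 4.46 in Aire-/- and 9.15 in Aire+/+ mTEClo, a difference of -4.69 (SE 0.578, limma adjusted p = 0.232, and 0.0554 with the block), and 9.25 in Brg1-/- and 9.92 in Brg1+/+ mTEClo. The other 3 arrays lay within 1 log2 unit of each other, far above the Aire-/- array. Dcpp1 read 4.70 in Aire-/- and 8.52 in Aire+/+ mTEClo, a difference of -3.82. Both genes were also lower in mTEChi, by limma: Dcpp2 read 4.18 and 5.49 in Aire-/- and 11.96 and 12.02 in Aire+/+ mTEChi.

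Defa22 and Defa21 encode alpha-defensins, the antimicrobial peptides of Paneth cells. Defa22 read 3.82 in Aire-/- and 7.46 in Aire+/+ mTEClo, a difference of -3.64 (SE 0.377, limma adjusted p = 0.131, and 0.0637 with the block). Defa21 read 4.39 in Aire-/- and 7.64 in Aire+/+ mTEClo, a difference of -3.25 (SE 0.405). In Brg1-/- and Brg1+/+ mTEClo Defa22 read 7.10 and 8.50 and Defa21 read 7.0 and 8.28, so both genes were clearly above the Aire-/- array on the other 3. In mTEChi Defa22 read 4.19 and 3.79 in Aire-/- and 11.40 and 11.81 in Aire+/+ arrays, so the Aire-/- arrays of both fractions read alike. Alpha-defensin, Dcpp and kallikrein genes belong to families of similar sequence, so that 1 probe set can pick up more than 1 of them, and the probes' sequences were not used here.

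The remaining genes of the 12 were Klk1b8, a kallikrein, Pate11, a secreted protein of the Ly6 type, Defb4, a beta-defensin, Tmem212, a transmembrane gene, and Ascl3, a transcription factor of salivary duct cells and ionocytes. Klk1b8 read 3.97 in Aire-/- and 7.06 in Aire+/+ mTEClo, with 4.82 in Brg1-/- and 5.16 in Brg1+/+ mTEClo. Against the mean of both wild-type arrays its difference was -2.14 in place of -3.09. Tmem212 read 5.40 in Aire-/- and 8.23 in Aire+/+ mTEClo, with 9.36 in Brg1-/- and 10.42 in Brg1+/+ mTEClo. In mTEChi it read 3.76 and 3.71 in Aire-/- and 7.70 and 7.61 in Aire+/+ arrays, so Aire-/- was the lowest array in both fractions. Ascl3 read 5.36 in Aire-/- and 8.14 in Aire+/+ mTEClo, with 8.71 in Brg1-/- and 6.37 in Brg1+/+ mTEClo. Pate11 read 3.38 in Aire-/- and 6.44 in Aire+/+ mTEClo, yet 8.89 and 8.13 in Aire-/- and 9.21 and 9.42 in Aire+/+ mTEChi. None of the 12 apart from Saa2, Klk1b1 and Reg3b passed the test with or without the block.

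**Figure D2:**
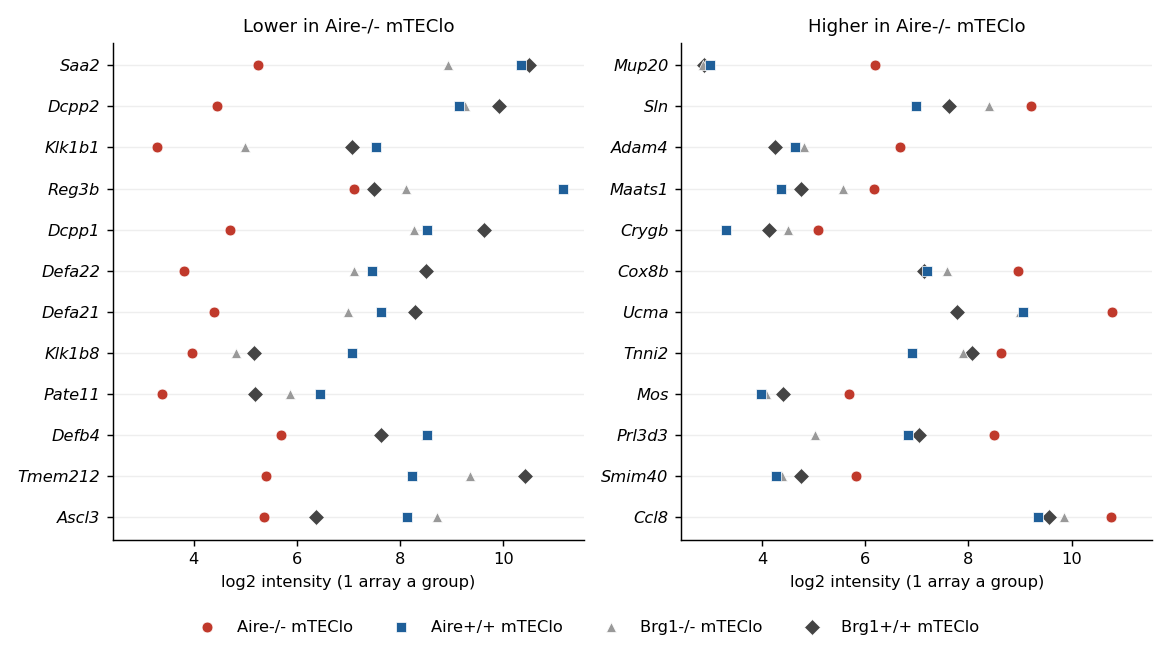
Log2 intensity of the 12 genes with the largest lower values (left) and the 12 with the largest higher values (right) on the 4 mTEClo arrays, 1 point an array, among genes where the Aire-/- array lies outside the other 3. Saa2 reads 5.24 in Aire-/- against 10.35 in Aire+/+ mTEClo. For Reg3b, at 11.15, and Klk1b8, at 7.06, the Aire+/+ point stands apart from the other 3.

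Genes higher in Aire-/- mTEClo were fewer and less far apart, and none passed the test with or without the block. The largest was Mup20, darcin, a major urinary protein made by male liver and used as a pheromone. It read 6.19 in Aire-/- and 2.99 in Aire+/+ mTEClo, and 2.85 in Brg1-/- and 2.87 in Brg1+/+ mTEClo, a difference of 3.20 (SE 0.795, limma adjusted p = 1, and 0.132 with the block). The other 3 arrays read close to each other, and the Aire-/- array alone was high. In mTEChi the order was the opposite: 4.80 and 3.73 in Aire-/- and 8.57 and 8.28 in Aire+/+ arrays.

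Sln, sarcolipin, the small inhibitor of the muscle calcium pump, read 9.22 in Aire-/- and 6.99 in Aire+/+ mTEClo, with 8.39 in Brg1-/- and 7.63 in Brg1+/+ mTEClo. Tnni2, fast troponin I, read 8.63 in Aire-/- and 6.90 in Aire+/+ mTEClo, with 7.90 and 8.06 in the Brg1-/- and Brg1+/+ arrays, so the step to its nearest neighbour was smaller. Ucma, a cartilage matrix protein, read 10.79 in Aire-/- and 9.06 in Aire+/+ mTEClo. Cox8b, a cytochrome oxidase subunit of muscle and brown fat, read 8.96 in Aire-/- and 7.19 in Aire+/+ mTEClo. The others of the 12 were Adam4, Maats1, Crygb, a lens crystallin, Mos, the germ cell kinase, Prl3d3, a placental prolactin family gene, Smim40 and Ccl8, a monocyte chemokine, with differences of 1.42 to 2.03. Predicted genes, noncoding RNAs and receptor families that the naming rule leaves out made up 44.6% of the 130 higher genes and 16.7% of the 347 lower genes, beside 22.6% of all genes.

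Groups of genes were described by their counts and medians, beside 1.57% lower, 0.587% higher and a median of 0.04 over all genes. The glandular kallikreins had the lowest median. Of 11 measured Klk1b genes 7 were at least 2-fold lower in Aire-/- mTEClo, 0 higher, and the median difference was -1.45. Klk1b22 read 3.89 in Aire-/- and 5.90 in Aire+/+ mTEClo and Klk1b24 read 4.42 in Aire-/- and 6.06 in Aire+/+ mTEClo. The Brg1-/- array was also below Brg1+/+ mTEClo in this family, with a median of -0.88. The family lies together on chromosome 7, where Klk1b22, Klk1b16, Klk1b24 and Klk1b5 are neighbours among the measured genes, as are Klk1b8, Klk1b1 and Klk1b9. Dcpp1, Dcpp2 and Dcpp3 on chromosome 17 are neighbours as well. Of 344 lower genes placed on the RefSeq gene order, 40 (11.6%) had a neighbour that was also at least 2-fold lower, beside 3.07% of all 21968 placed genes. For the higher genes it was 8 of 129 (6.2%), beside 1.17% of all.

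Microfold cell genes, which mark the antigen-sampling cells of gut epithelium and a like cell of the medulla, were lower as a group. All 12 measured members were below 0, 6 of them at least 2-fold, and the median difference was -0.64 in mTEClo and -0.60 in mTEChi. Ccl6, a CC chemokine, read 5.40 in Aire-/- and 7.47 in Aire+/+ mTEClo, with 6.37 in Brg1-/- and 6.34 in Brg1+/+ mTEClo. Gp2, the microfold receptor for bacterial fimbriae, read 8.53 in Aire-/- and 9.92 in Aire+/+ mTEClo, with 9.13 in Brg1-/- and 9.08 in Brg1+/+ mTEClo. In both genes the Aire-/- array was the lowest and the Aire+/+ array the highest. Ccl9 differed by -1.48 and Pglyrp1, a peptidoglycan recognition protein, by -1.45, although Pglyrp1 read 8.25 in Aire-/- and 8.21 in Brg1+/+ mTEClo. Ccl20, the chemokine that draws CCR6 cells, and Sox8, a microfold transcription factor, differed by -1.39 and -1.03; they are named here with their values already known. Spib, another such factor, differed by -0.22. Against the mean of both wild-type arrays 3 of the 12 were at least 2-fold lower and the median was -0.69. Of the 12, 8 lay below the other 3 mTEClo arrays, beside 19.7% of all genes.

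Genes of gut, pancreas, gland and liver were lower in part. Of 25 intestinal genes 7 were at least 2-fold lower (median -0.61) and 22 were below 0. Tff3, the goblet cell trefoil factor, read 7.57 in Aire-/- and 9.70 in Aire+/+ mTEClo, and 9.04 and 9.40 in Brg1-/- and Brg1+/+ mTEClo, so the Aire-/- array lay well below the rest. Zg16, a goblet cell lectin, read 4.22 in Aire-/- and 6.31 in Aire+/+ mTEClo, but 3.53 in Brg1-/- and 4.74 in Brg1+/+ mTEClo. Against the mean of both wild-type arrays its difference was -1.305 in place of -2.09. Of 21 pancreas genes 7 were at least 2-fold lower (median -0.61). Iapp, the amyloid peptide of beta cells, read 8.19 in Aire-/- and 10.41 in Aire+/+ mTEClo, with 8.99 in Brg1-/- and 9.63 in Brg1+/+ mTEClo. Prss2, trypsinogen, read 6.44 in Aire-/- and 9.51 in Aire+/+ mTEClo, with 5.68 in Brg1-/- and 7.62 in Brg1+/+ mTEClo. Its difference was -3.07, and -2.125 against the mean of both wild-type arrays. Of 20 genes of the salivary, lacrimal and mammary glands 5 were at least 2-fold lower (median -0.57), with Dcpp3 at 6.96 in Aire-/- and 8.78 in Aire+/+ mTEClo. In the liver list 4 of 23 were at least 2-fold lower (median -0.16). Apart from Saa2 these were Hp, haptoglobin, Ttr, transthyretin, and Ambp, with differences of -1.34, -1.32 and -1.14. Ambp read 5.61 in Aire-/- and 6.75 in Aire+/+ mTEClo, but 5.20 in Brg1-/- and 5.62 in Brg1+/+ mTEClo, so the Aire+/+ array alone stood apart. Ttr read 6.32 in Aire-/- and 7.64 in Aire+/+ mTEClo, with 5.70 in Brg1-/- mTEClo below both. None of these 4 lists had a member at least 2-fold higher. Below the other 3 mTEClo arrays lay 12 of the 25 intestinal, 5 of the 21 pancreas, 6 of the 20 gland and 4 of the 23 liver genes, beside 19.7% of all genes. Without Brg1-/- mTEClo, 17, 9, 11 and 10 of them lay below both wild-type arrays, beside 5887 of all 22154 genes. Against the mean of both wild-type arrays the members at least 2-fold lower numbered 6, 5, 4 and 2 in that order of lists, with medians of -0.41, -0.41, -0.34 and -0.19.

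Of 30 Sprr and Lce genes, precursors of the cornified envelope of skin, 6 were at least 2-fold lower and 2 higher (median -0.35). Lce3f read 5.98 in Aire-/- and 8.65 in Aire+/+ mTEClo, with 9.87 in Brg1-/- and 9.73 in Brg1+/+ mTEClo. Lce3c and Lce3d each differed by 1.15, but for both the Aire+/+ array was the lowest of the 4. In the cornified keratinocyte list 0 of 27 were at least 2-fold apart and the median was -0.09. Among 14 genes of motile cilia 2 were at least 2-fold lower and the median was 0. Dynlrb2, a dynein light chain, read 6.53 in Aire-/- and 8.91 in Aire+/+ mTEClo, with 10.15 in Brg1-/- and 10.69 in Brg1+/+ mTEClo. Tppp3, a tubulin-binding protein, read 7.47 in Aire-/- and 8.68 in Aire+/+ mTEClo. Foxj1, the master factor of motile cilia, read 4.81 in Aire-/- and 4.99 in Aire+/+ mTEClo, which does not set the arrays apart.

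Striated muscle genes lay the other way. Of 23 measured, 0 were at least 2-fold lower and 2 higher, 18 were above 0, and the median difference was 0.28 in mTEClo and -0.17 in mTEChi. The Aire-/- array was above the other 3 mTEClo arrays in 15 of the 23, beside 29.2% of all genes, and in 12 of the 23 once arrays were centred. Tnnc2, fast troponin C, read 8.51 in Aire-/- and 7.42 in Aire+/+ mTEClo, with 7.64 in Brg1-/- and 7.86 in Brg1+/+ mTEClo. Acta1, skeletal actin, read 8.66 in Aire-/- and 7.69 in Aire+/+ mTEClo, with 7.89 in Brg1-/- and 7.43 in Brg1+/+ mTEClo. In both genes the Aire-/- array was the highest, by less than 1 log2 unit over the next low array. Of 35 bitter taste receptor genes 2 were at least 2-fold lower and 5 higher, with a median of -0.01.

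**Figure D3:**
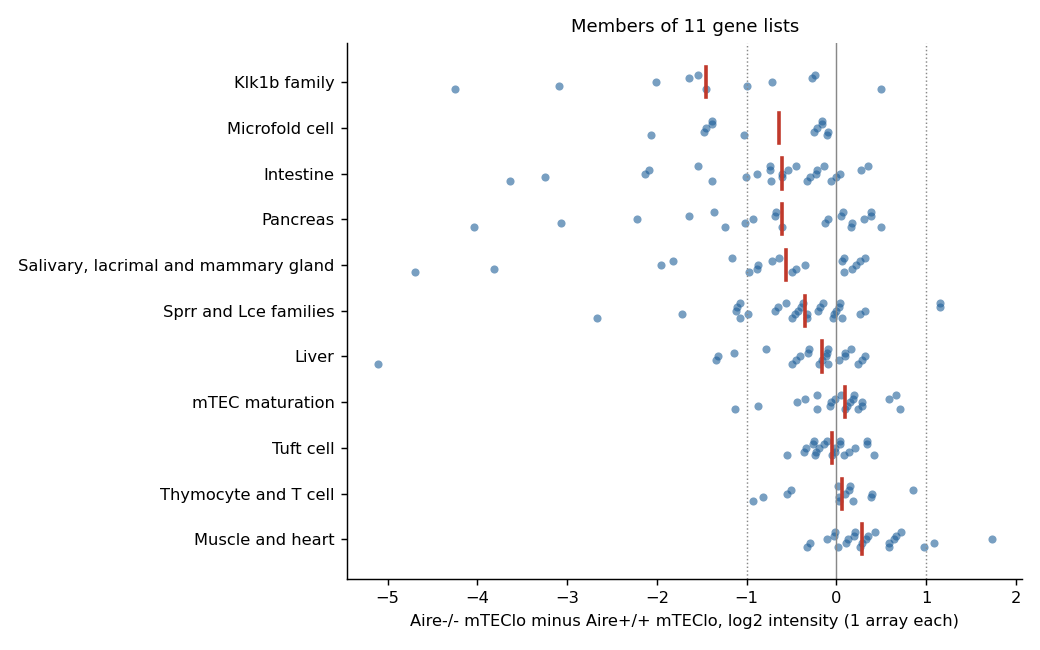
Difference of each measured member of 11 gene lists between the Aire-/- and Aire+/+ mTEClo arrays (points, log2) and the list's median (red bars). Dotted lines mark 2-fold. Medians run between -1.45 in the Klk1b family and 0.28 in muscle and heart, with tuft cell, thymocyte and mTEC maturation genes around 0.

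Genes of mTEC state had few members far apart. In the mTEC maturation list 1 of 21 was at least 2-fold lower and 0 higher (median 0.09). That gene was Ccl17, a chemokine for CCR4 cells, at 6.61 in Aire-/- and 7.74 in Aire+/+ mTEClo, with 6.26 in Brg1-/- mTEClo below both. In the list of immature and junctional mTEC genes 2 of 16 were at least 2-fold lower, Plet1 and Ctla2b, with differences of -1.50 and -1.15, and 12 of the 16 were below 0 (median -0.20). The summed log2 level of that list was 130.6 in Aire-/- and 135.8 in Aire+/+ mTEClo, with 132.9 in Brg1-/- and 134.9 in Brg1+/+ mTEClo. In all, 19 of 46 lists had no member at least 2-fold apart, among them those for tuft, neuroendocrine, cortical epithelial, thymocyte, myeloid and B cells, for NF-kB, interferon, p53 and the cell cycle, and for Aire partners and chromatin. Short lists often hold no such gene at the share of all genes. Below the other 3 mTEClo arrays lay 9 of 21 tuft and 9 of 21 interferon genes. So did 9 of 24 cell cycle and 6 of 14 p53 genes, beside 19.7% of all genes. With quantile normalization the counts were 5, 7, 10 and 5, beside 5068 of all 22154 genes. Once arrays were centred they were 13, 10, 9 and 6, beside 5370 of all genes. The tuft count thus depended on the scaling of arrays. Among 16 fibroblast and endothelial genes 1 was at least 2-fold lower: Emcn, endomucin of vessels, at 3.92 in Aire-/- and 6.21 in Aire+/+ mTEClo. In that list 8 genes were below 0 and 8 above, with a median of -0.03. Lum, Dcn and Col1a2, matrix genes of fibroblasts, differed by -0.97, -0.95 and -0.95. Col1a2 has 2 probe sets, and with their median its difference was -0.395, so the probe set not kept lay the other way. The fibroblast genes Col1a1, Col3a1 and Pdgfra lay the other way, at 5.90, 6.25 and 4.46 in Aire-/- and 5.79, 5.98 and 4.11 in Aire+/+ mTEClo. The endothelial genes Pecam1 and Cdh5 read 5.50 and 5.31 in Aire-/- and 5.64 and 5.29 in Aire+/+ mTEClo. The part of such cells in the lower genes was not tested.

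The mTEChi arrays, which share no array with the mTEClo comparison, gave a measure of which of these genes differ with Aire in mature cells. Of the 347 genes at least 2-fold lower in Aire-/- mTEClo, 129 (37.2%) had a mean at least 2-fold lower in Aire-/- mTEChi, beside 3.44% of all genes. Another 153 (44.1%) lay within 0.5 of 0 in mTEChi, beside 86.2% of all genes, and 6 had a mean at least 2-fold higher. For the 130 higher genes the mTEChi mean was at least 2-fold lower in 16 (12.3%) and at least 2-fold higher in 11 (8.46%, beside 0.664% of all). Across genes the mTEClo and mTEChi differences had a Pearson r of 0.23 and a Spearman rho of 0.11, as a description of 22154 genes that are not independent. The median of Brg1+/+ mTEChi minus Brg1+/+ mTEClo was 0.42 for the lower genes. It was 0.13 for the higher genes and -0.11 for all genes. Of the lower genes, 126 (36.3%) were at least 2-fold higher in Brg1+/+ mTEChi than in Brg1+/+ mTEClo. That share was 22.3% for the higher genes and 5.93% for all genes.

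Among the lower genes close to 0 in mTEChi, 88 lay below the other 3 mTEClo arrays. The ones named here were picked once values were known. Emcn, above, is among them, as are Ormdl2, a regulator of sphingolipid synthesis, at 7.44 in Aire-/- and 9.34 in Aire+/+ mTEClo, and Cfap299, at 4.45 in Aire-/- and 6.33 in Aire+/+ mTEClo. Ormdl2 read 9.24 in Brg1-/- and 9.06 in Brg1+/+ mTEClo, and 8.45 and 9.38 in Aire-/- and 9.08 and 9.46 in Aire+/+ mTEChi. Its low reading was on a single array.

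By limma 171 genes (0.772%) were lower and 5 (0.0226%) higher in Aire-/- mTEChi, and with the block 465 (2.1%) were lower and 66 (0.298%) higher. The 171 are used below. Of the 171, 54 were at least 2-fold lower in Aire-/- mTEClo, which is 31.6% of the 171 and 15.6% of the 347, and 2 were at least 2-fold higher. How far they were lower went with their reading in wild-type mTEClo, taken from the Brg1+/+ array, which is outside the comparison. Of 32 genes that read 8 or more there, 22 (68.8%) were at least 2-fold lower in Aire-/- mTEClo, with a median of -1.35. Of 23 that read 7 to 8, 10 (43.5%) were, with a median of -0.87. Of 25 that read 6 to 7, 5 were (median -0.34), of 34 that read 5 to 6, 7 were (median -0.24), and of 57 that read under 5, 10 were (median -0.16). In mTEChi the same bins had like medians, between -3.47 and -3.11. All other genes had medians between -0.10 and 0.09 over the bins, and at readings of 8 or more 1.8% were at least 2-fold lower. No detection call was used, and the part of array background at low readings was not tested.

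**Figure D4:**
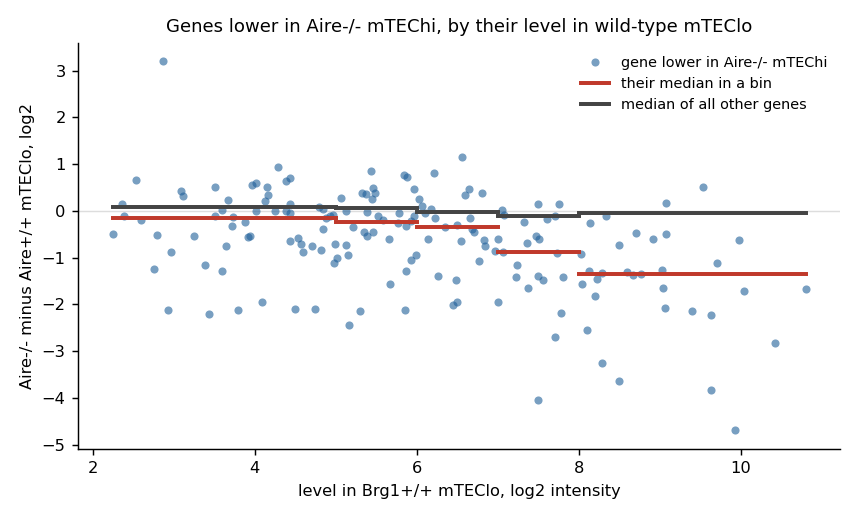
Difference between the Aire-/- and Aire+/+ mTEClo arrays (log2) of the 171 genes lower in Aire-/- mTEChi, against their log2 intensity on the Brg1+/+ mTEClo array. Red bars are their medians in bins of that reading, from -0.16 under 5 to -1.35 at 8 and above, and dark bars are the medians of all other genes, close to 0.

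Whether the effect itself differed between the fractions was tested as the mTEClo difference minus the mTEChi difference. By limma no gene passed (0 higher and 0 lower, 0% each, with 547 at an unadjusted p under 0.05). With the block 60 genes were higher (0.271%) and 3 lower (0.0135%), and these counts were 0 when any 1 of the 4 Aire-line mTEChi arrays was left out. Of the 60, 49 are among the 171 genes lower in Aire-/- mTEChi, which are 0.772% of all genes. Both sets use the same Aire-line mTEChi arrays, and a lower mTEChi difference raises the tested value. The overlap is thus largely set by the selection, as are the medians that follow. The median reading of the 60 was 4.90 in Aire-/- and 5.15 in Aire+/+ mTEClo, and 4.43 in Aire-/- and 8.70 in Aire+/+ mTEChi. By these medians they were low in both genotypes of the low fraction and high in Aire+/+ mTEChi, although single members such as Lce3c, at 9.33 in Aire-/- and 8.18 in Aire+/+ mTEClo, read well above them.

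Leaving out predicted genes, the largest differences between fractions among these were 7.36 for Mup20, 6.30 for Usp17lc, a deubiquitinase, 6.22 for Defb50, a beta-defensin, 5.54 for Il9, a cytokine of T cells and mast cells, and 5.16 for Bpifa5, a BPI-fold protein of airway mucosa. Bpifa5 read 6.85 in Aire-/- and 6.08 in Aire+/+ mTEClo, and 5.49 and 6.25 in Aire-/- and 9.90 and 10.62 in Aire+/+ mTEChi (SE of the difference with the block 0.338, adjusted p = 0.0114). Il9 read 4.11 in Aire-/- and 3.73 in Aire+/+ mTEClo, but 6.80 in Brg1+/+ mTEClo, and against the mean of both wild-type arrays its mTEClo difference was -1.16 in place of 0.38. Usp17lc and Defb50 turned in the same way, to -0.60 and -0.29. For these 3 genes the sign in mTEClo depends on which wild-type array is used.

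The 3 genes lower in mTEClo than in mTEChi were Saa2, at -3.17 (SE 0.397, adjusted p = 0.0385 with the block), Klk1b1, at -3.16 (SE 0.334, adjusted p = 0.0225), and Yae1d1, at -2.82 (SE 0.373, adjusted p = 0.0444). Yae1d1, a factor of iron-sulphur protein assembly, read 5.79 in Aire-/- and 7.47 in Aire+/+ mTEClo, and 8.99 and 9.19 in Aire-/- and 7.62 and 8.29 in Aire+/+ mTEChi. It has 2 probe sets, and with their median the mTEClo difference was -0.70. The probe set not kept thus lay the other way, higher in Aire-/- than in Aire+/+ mTEClo.

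**Figure D5:**
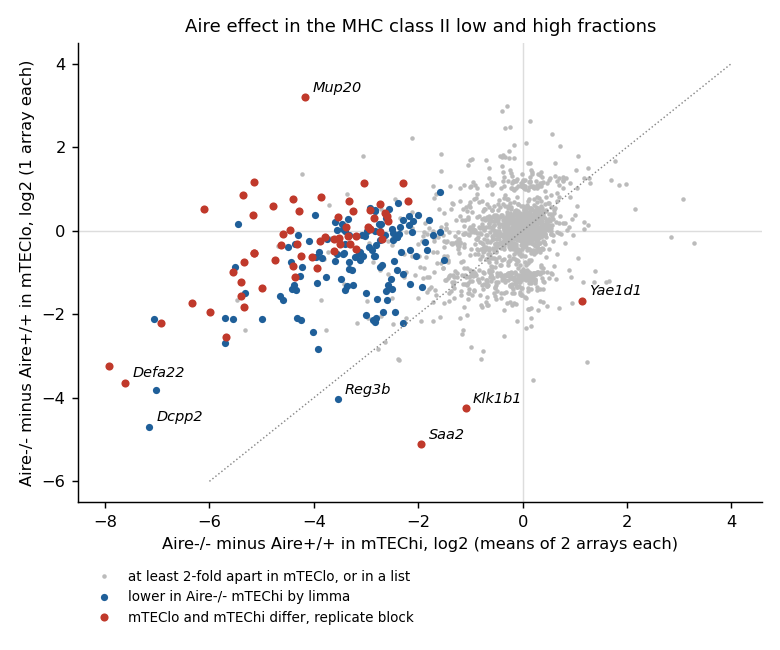
Difference between Aire-/- and Aire+/+ in mTEClo (vertical, 1 array each) against mTEChi (horizontal, means of 2 arrays each), log2, for genes at least 2-fold apart in mTEClo, in a gene list or past a test. Blue points are the genes lower in Aire-/- mTEChi by limma, red points the 63 whose effect differed between fractions with the block, and the dotted line marks equal effects; Saa2 and Klk1b1 lie below it and Mup20, at 3.20 in mTEClo and -4.16 in mTEChi, far above.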

How the data were processed

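The values that the authors deposited are linear intensities of 33732 probe sets, 1 value an array, from 12 single-colour Affymetrix arrays, per the file headers and labels. Transcriptome Analysis Console, Affymetrix Expression Console and RMA are named in the submitters' processing notes, which give neither version nor role. The sources used here do not say if the 12 arrays went through normalization as 1 set. Deposited intensities were taken to log2, with no pseudocount and no further scaling. Array medians over the genes compared lay between 5.32 and 5.50, and the number of arrays limits the precision.

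Through the platform annotation 23491 probe sets had 1 gene symbol, 1811 several and 8430 none; where a gene had several, the brightest on average was kept, which left 22154 genes, 21968 of them in a RefSeq gene table used for names and gene order. Neighbours are adjacent genes in that order. Promoters are the first start listed for a gene in a RefSeq table of GRCm38.p6.

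Fits were 1 model of 8 group means over all 12 arrays (limma 3.58.1 in R 4.3.3, lmFit and eBayes, two-sided, Benjamini-Hochberg adjusted p under 0.05 over all genes); the steps were tested on simulated data. The labels' replicate numbers were taken to pair arrays, because the difference between number 1 and number 2 correlated at 0.552 to 0.657 over genes between each pair of the 4 mTEChi groups; fits that block on this number, separately for the Aire and Brg1 lines, are given beside a result where they change it, and leave 2 residual degrees of freedom. The members and the 46 gene lists, the tests and the naming rule were chosen with earlier results of these data known. The rule names Aire, genes past the test, the 12 largest lower and higher genes at least 2-fold apart and outside the other 3 mTEClo arrays, up to 5 genes each way that differ between fractions and up to 4 members a list with the largest difference; it leaves out predicted, noncoding, receptor family and sex-linked genes. Other names were chosen after values were seen. Counts and medians were worked out in Python 3.11.15 with pandas 2.3.3. Alternatives were centring and quantile normalization of arrays, a filter at log2 6, the median of probe sets, a variance trend, the Aire line alone, other wild-type arrays and leaving out each mTEChi array. The block with an array left out or with quantile normalization, and counts without Brg1-/- mTEClo, were added after seeing the data.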

Additional observations from a re-analysis of the deposited data

Results flagged for a closer look

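With the replicate number as a block, the effect of Aire loss differed between the fractions in 63 genes, and the named ones are given as values (mTEClo difference minus mTEChi difference, log2). It was 7.36 for Mup20, 6.30 for Usp17lc, 6.22 for Defb50, 5.54 for Il9 and 5.16 for Bpifa5. It was -3.17 for Saa2, -3.16 for Klk1b1 and -2.82 for Yae1d1. Without the block no gene passed the same test, and no group had the 4 arrays that a search for a single array far from its group needs.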

How the results depend on the processing

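The count of genes past the test in mTEClo was 0 without the block under centring, the filter, the median of probe sets, the variance trend, the Aire line alone and leaving out each mTEChi array (0 to 0). It was 3 with quantile normalization (Defa22, Klk1b1 and Saa2), 3 with the replicate block, 4 with both, and 0 to 0 with the block and 1 mTEChi array left out. For the difference between fractions the count was 63 with the block, and 0 to 75 with the block and 1 mTEChi array left out: 0 without any Aire-line array and 75 without any Brg1-line array. The number of genes at least 2-fold lower was 51 at 4-fold and 265 to 411 under the other settings. The number at least 2-fold higher was 11 at 4-fold, 76 with the filter at log2 6 and 212 against Brg1+/+ mTEClo. The median mTEClo difference of the genes lower in Aire-/- mTEChi, -0.54 over 171 genes, was -0.31 over the 465 genes lower with the block. It was -1.10 to -0.75 when 1 Aire-line mTEChi array was left out, with -1.10 without Aire-/- mTEChi replicate 2 and 53 to 70 genes past the test. Of 195 named genes, 35 moved by more than the spread against the mean of both wild-type arrays, and 8 of the 195 changed sign, among them Csta3 at 0.23. Of 46 list medians, 6 changed sign with centring, 5 with quantile normalization and 6 against both wild types. Aire+/+ and Brg1+/+ mTEClo are 1 array each, so no error of the mTEClo fraction itself could be measured. The causes of these changes were not tested.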
